A study of Arabidopsis thaliana with 4 samples.

Results

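The genes described here are 55 Arabidopsis thaliana loci of 2 families that act on the growing cell wall, 22 expansins and 33 xyloglucan endotransglucosylase/hydrolases (XTHs). They were listed by family name, with earlier results of these arrays known: 17 α-expansins (EXPA), 2 β-expansins (EXPB), 3 expansin-like A genes (EXLA), and XTH1 to XTH33. EXPA7 and EXPA18, which are expressed in root hairs, were kept apart as markers of that cell type. The list does not hold every other expansin of the species, so counts of expansins are of the listed genes. All 55 loci had at least 1 probe, of 25382 loci on the array that had one, and 50 were measured, meaning that in 1 or more genotypes each array read a probe of the gene as well above background. EXPA12, XTH1, XTH2, XTH3 and XTH29 were not well above background on any array and have no value. Across the array, 20461 genes were measured.

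The study compared whole seedlings of 3 genotypes, all in the Col-0 background, grown on agar medium with 1.5% sucrose at 22 °C, under 8 h of light and 16 h of darkness, and sampled 14 days after germination. All seeds had been kept wet and dark at 4 °C for 3 days before sowing, and no other treatment was given. WT is the wild type, AtC3H17 OX overexpresses C3H17, which encodes a zinc finger protein of the CCCH type, and the atc3h17-1 line is named for a mutant allele of it. WT and atc3h17-1 were each hybridised to 1 one-colour Agilent array, and AtC3H17 OX to 2. The promoter of the transgene, the number of independent lines and the number of plants per sample are not given in the sources used here.

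Expansins are small wall proteins that loosen the wall at acid pH without cutting its polymers, and growing cells use them to extend. α- and β-expansins have this activity, while none has been established for the expansin-like A proteins. XTHs cut xyloglucan, the main hemicellulose that coats cellulose in the primary wall of Arabidopsis, and either join the cut end to another xyloglucan chain or, in a few members, to water. Many XTHs are expressed in a particular organ, and a group of them is best known from roots.

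Levels are given as the signal in percent of the 75th percentile of all signals on the same array, averaged over a gene's probes on the log scale. Probes differ in how brightly they bind, so levels are compared between arrays for 1 gene and never between genes. The 75th percentile itself lay between 3273 and 3487, 72% to 74.5% of spots were well above background, and none was saturated. The median gap between the AtC3H17 OX arrays was 0.0316 (log2), below the median SD of repeated spots of 1 probe, which was 0.0528 on the first and 0.0406 on the second. What separated them did not recur between 2 probes of a gene (r = 0.0037, across 5698 genes, against 0.537 to 0.619 between genotypes), so they were counted as 1 sample. Each genotype was thus 1 sample, no spread between plants could be measured, and no p-value is given. A difference was counted where it was at least 2-fold, on both AtC3H17 OX arrays where that genotype took part. Between the AtC3H17 OX arrays themselves, 238 of 20461 measured genes were at least 2-fold apart. Asking for both arrays limits such gaps, but atc3h17-1 against WT, with 1 array each, has no such filter.

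The WT array was the least even of the 4. Its repeated spots had a median SD of 0.178, over 12 probes, against 0.0406 to 0.0549 on the others. A smooth trend over its surface, left after the scanner software's own correction, ran from -0.257 to 0.214 on the log2 scale over 95% of positions, against at most 0.107 in either direction on the others. Both comparisons with WT rest on this array, while AtC3H17 OX against atc3h17-1 does not use it.

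C3H17 itself was measured by 3 probes. In AtC3H17 OX, 2 of them were 4.57-fold and 5.60-fold higher than in WT, and the brightest was at 0.981-fold. For that probe the scanner software had raised the WT spot 2.01 times and the AtC3H17 OX spots 1.19 and 1.22 times, from 10134 units over background in WT and 16170 and 16180 in AtC3H17 OX. In atc3h17-1, 2 probes were not well above background, which makes them at least 42.7-fold and at least 502-fold lower than in WT, and the third was 1.41-fold higher. In each line 2 of 3 probes thus differed from WT in the direction of the label, and the remaining probe was not the same one in both lines.

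Most expansins had slightly lower signals in AtC3H17 OX than in WT. The median difference was -0.50 on the log2 scale (1.42-fold lower, 21 genes), where the median of all genes was -0.03. On both arrays, 18 of 21 expansins were below WT and 3 above, against 50.5% and 44.2% of all genes. None was at least 2-fold lower, and 1, EXPA2, was counted as 2-fold higher, although neither WT nor the first AtC3H17 OX array was well above background for it. At a looser limit of 1.5-fold, 8 of 21 were lower, against 9.69% of all genes. The median of the expansins was -0.43 once the surface trend was removed.

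Among the listed α-expansins the median was -0.55 (1.47-fold lower, 16 genes), with 15 of 16 below WT on both arrays, against 50.5% of all genes. EXPA1, known from guard cell walls, had signals of 2290% in WT, 1502% and 1521% on the AtC3H17 OX arrays and 1766% in atc3h17-1. Both lines were below WT, AtC3H17 OX by 1.52-fold and atc3h17-1 by 1.3-fold. EXPA10, which acts in leaf and petiole growth, had 36.4% in WT, 21.8% and 21.0% in AtC3H17 OX, and 31.6% in atc3h17-1. Its 2 probes both showed AtC3H17 OX lower, by 1.70-fold on average, with atc3h17-1 between the other genotypes at 1.15-fold below WT.

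EXPA14, linked to lateral root growth, had 10.9% in WT, 5.94% and 5.71% in AtC3H17 OX and 5.52% in atc3h17-1. Both lines had similar values, 1.88-fold and 1.98-fold below WT, just inside the 2-fold limit. The WT spot had been raised 1.72 times by the scanner software, against 0.932 to 1.01 times on the other arrays, from 222 units over background in WT, 202 and 194 in AtC3H17 OX and 194 in atc3h17-1. The differences were -1.05 and -1.06 with the surface trend removed, -0.12 and -0.11 with normexp values, which hold no correction for position, and -0.82 and -0.76 with the trend removed from those. EXPA16 had 3.62%, 1.98%, 1.81% and 2.30% in the same order, which is 1.91-fold lower in AtC3H17 OX and 1.57-fold lower in atc3h17-1. EXPA9 had 18.5% in WT, 10.1% and 10.2% in AtC3H17 OX and 14.7% in atc3h17-1, 1.82-fold and 1.26-fold lower. These 3 were the lowest expansins in AtC3H17 OX against WT.

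EXPA11 had 414% in WT, 256% and 259% in AtC3H17 OX and 390% in atc3h17-1. It was 1.61-fold lower in AtC3H17 OX, while atc3h17-1 differed from WT by 1.06-fold only. EXPA3, with 2 probes, had 313%, 197%, 195% and 229%, so that AtC3H17 OX was 1.60-fold and atc3h17-1 1.37-fold lower. EXPA15 was also below WT in both lines, with 32.0% in atc3h17-1 against 54.1% in WT, 1.69-fold lower. Its AtC3H17 OX arrays had 39.8% and 32.4%, the second of them close to atc3h17-1. The remaining measured α-expansins other than EXPA2 lay between -0.07 (EXPA4) and -0.52 (EXPA13) in AtC3H17 OX. Among them were EXPA5, linked to brassinosteroid-driven growth, at -0.22, and EXPA17, which acts in lateral root formation, at -0.50. For the brighter EXPA5 probe the WT spot was raised 1.89 times, from 2150 units over background, against 2456 to 2528 units in the lines. For the brighter EXPA20 probe it was raised 1.61 times, from 934 units, against 1126 to 1176 in the lines. The dimmer probe of each gene was lower in the lines than in WT before that correction.

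The 2 listed β-expansins were below WT in both lines. EXPB1 had 25.7% in WT, 16.7% and 16.5% in AtC3H17 OX and 17.7% in atc3h17-1, which is 1.55-fold and 1.45-fold lower. EXPB3 differed little, by 1.11-fold and 1.12-fold. The 3 expansin-like A genes did not share 1 direction. EXLA1 had 49.4% in WT, 66.2% and 66.0% in AtC3H17 OX and 75% in atc3h17-1, above WT in both lines by 1.34-fold and 1.52-fold. EXLA2 was below WT by 1.32-fold and 1.1-fold. EXLA3 could not be placed in AtC3H17 OX, because its 2 probes gave -0.56 and 0.95.

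In atc3h17-1 the expansins were also mostly below WT, by a median of -0.33 (1.26-fold, 21 genes) against -0.02 for all genes, with 17 of 21 lower, against 53.0% of all genes, and 4 higher, against 47.0%. None was 2-fold lower and 3 were at least 1.5-fold lower, against 8.65% of all genes. The same WT array stands on one side of both comparisons, so the 17 expansins that were below WT in both lines do not count as found independently. Without the WT array, AtC3H17 OX was lower than atc3h17-1 by a median of -0.18 (1.13-fold), on both arrays in 14 of 21 expansins, against 47.3% of all genes, and higher in 5, against 45.1%. Only EXPA11 was at least 1.5-fold lower there on both arrays (1.51-fold), against 3.45% of all genes. Next came EXPA10 (1.48-fold) and EXPA9 (1.45-fold), and EXPA4 was the highest at 1.39-fold. EXPA2 was 3.18-fold lower on average, but its AtC3H17 OX arrays disagreed, so it is left out of this order.

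**Figure D1:**
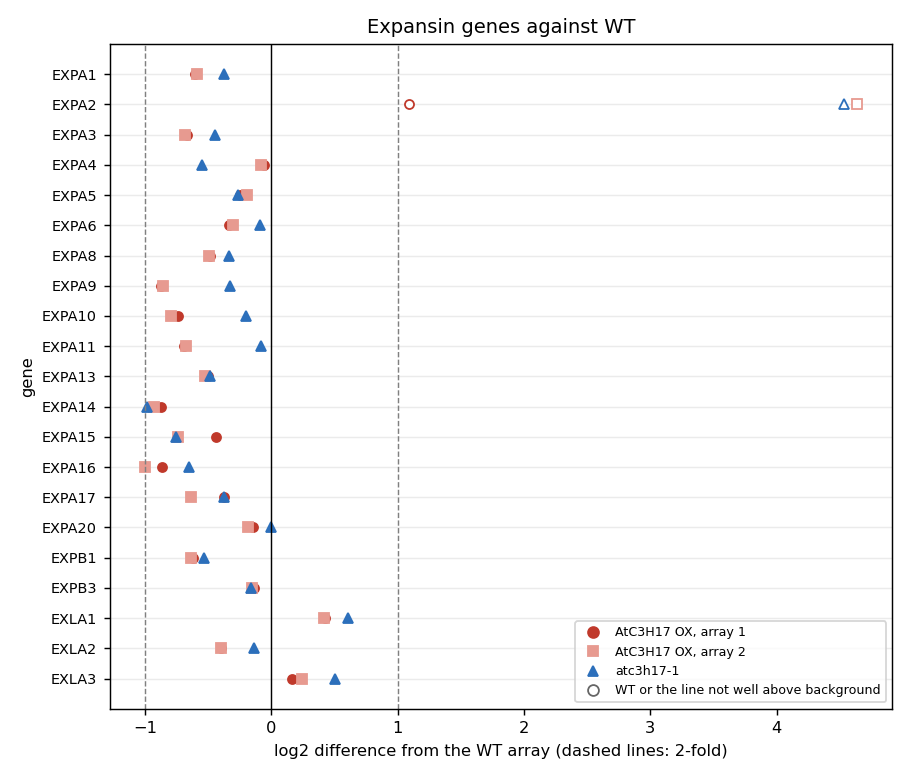
Each row is 1 measured expansin and each point 1 array, placed by its log2 difference from the WT array; dashed lines mark 2-fold, and hollow points mark a gene where WT or the array shown was not well above background. Of the 21 genes, 18 lie left of 0 on both AtC3H17 OX arrays, all of them short of the 2-fold line on average, and EXPA2 is the gene whose AtC3H17 OX points lie far apart.

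EXPA2, known from germinating seeds, was the exception in size and in quality. Its signal was 0.323% in WT and 0.686% on the first AtC3H17 OX array, neither well above background, and 8.02% on the second and 7.46% in atc3h17-1, both well above it. The first AtC3H17 OX array minus the second was -3.55 on the log2 scale, so its level in that genotype is not settled. Set against the dimmest signal that still counted as above background, atc3h17-1 was at least 6.70-fold higher than WT by the 1 probe of this gene. As that probe disagreed so far between arrays counted as 1 sample, this difference is not settled either. Without EXPA2 the median of the other 20 expansins was -0.51 in AtC3H17 OX, -0.33 in atc3h17-1 and -0.17 between the lines.

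The XTHs did not share a direction. Their median in AtC3H17 OX was -0.14 (29 genes). On both arrays 16 were below WT and 12 above, against 50.5% and 44.2% of all genes. The middle 50% of the XTHs spanned -0.72 to 0.34, where that of all genes spanned -0.31 to 0.26. In AtC3H17 OX against WT, 4 XTHs were at least 2-fold lower (2.78% of all genes were) and 3 at least 2-fold higher (4.37% of all genes were). In atc3h17-1 against WT the counts were again 4 lower (4.24% of all genes) and 3 higher (4.34%), around a median of -0.17. Between AtC3H17 OX and atc3h17-1, 3 XTHs were at least 2-fold higher (2.80% of all genes) and 0 lower (1.66%), with a median of 0.01. At 1.5-fold, 9 XTHs were lower and 5 higher in AtC3H17 OX (9.69% and 10.1% of all genes), 6 and 6 in atc3h17-1 (8.65% and 8.89%), and 2 and 6 between the lines (3.45% and 6.30%).

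Of the 50 measured members of both families, 8 passed 2-fold in AtC3H17 OX (7.15% of all genes in either direction), 8 in atc3h17-1 (8.59%) and 3 between the lines (4.46%). EXPA2, with its dim signals, is 1 of the 8 in both comparisons with WT. With normexp values 5 passed in AtC3H17 OX, where 5 of the 8 were lost and 2 gained, 7 in atc3h17-1 and 1 between the lines. At 1.5-fold, without normexp, the counts were 23 (19.8%), 17 (17.5%) and 9 (9.76%). Over all genes the limit of 2-fold was passed by 894 higher and 568 lower genes in AtC3H17 OX and by 889 and 868 in atc3h17-1, and with normexp background correction of the uncorrected spot signals by 859 and 286, and by 815 and 424.

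**Figure D2:**
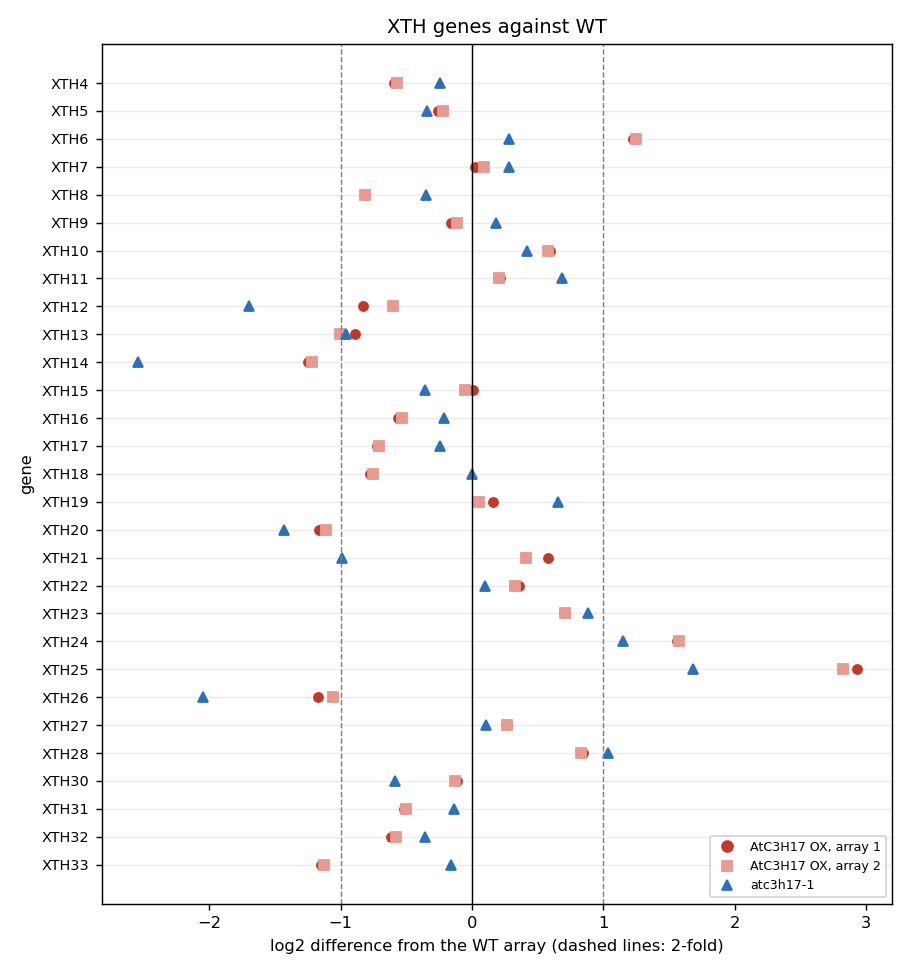
Each row is 1 measured XTH and each point 1 array, placed by its log2 difference from the WT array; dashed lines mark 2-fold. XTH24 and XTH25 lie right of the 2-fold line and XTH14, XTH20 and XTH26 left of it in both lines, while XTH6 and XTH33 lie beyond it in AtC3H17 OX alone.

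The 8 listed XTHs known from roots, XTH12, XTH13, XTH14, XTH17 to XTH20 and XTH26, were mostly lower in both lines. Below WT were 7 of 8 in AtC3H17 OX and 6 of 8 in atc3h17-1, against 50.5% and 53.0% of all genes. Their median was -0.85 in AtC3H17 OX (1.81-fold lower, 8 genes) and -1.19 in atc3h17-1 (2.29-fold lower), and -0.64 and -0.69 with normexp values after removal of their surface trend. In AtC3H17 OX, 7 of 8 were at least 1.5-fold lower, and in atc3h17-1, 5 of 8, against 9.69% and 8.65% of all genes. This list was drawn up with earlier results of these arrays known, so its count is a description. It leaves out XTH21, which also acts in root growth and whose probes disagreed in direction (-0.71 and 1.70 in AtC3H17 OX). In whole seedlings, fewer cells of a type and less RNA per cell cannot be told apart.

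XTH14 (AT4G25820), which acts in root hairs and the root elongation zone, lay furthest below WT of the measured XTHs in both lines. Its signal was 237% in WT, 100% and 102% on the AtC3H17 OX arrays and 40.7% in atc3h17-1. The AtC3H17 OX arrays stood between the other genotypes, 2.34-fold below WT and 2.48-fold above atc3h17-1, which was 5.82-fold below WT. Its spot lies where the scanner software raised the WT signal strongly. The processed signal was 2.52 times the median spot signal over background there, against 0.97 for the median of 18066 bright spots of the WT array and 1.26 to 1.31 for the XTH14 spot on the other arrays. Before that correction the WT spot stood at 3269 units over background, the AtC3H17 OX spots at 2610 and 2675 and the atc3h17-1 spot at 1059. With normexp values, which hold no correction for position, the difference of AtC3H17 OX from WT was -0.28, and with a surface trend removed from those values it was -1.26.

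XTH26 (AT4G28850), another root hair member, followed the same order with 17.5% in WT, 7.77% and 8.41% in AtC3H17 OX and 4.24% in atc3h17-1. It was 2.16-fold lower in AtC3H17 OX and 4.12-fold lower in atc3h17-1. The first call ended with normexp values (-0.60) and was kept once their surface trend was removed (-1.20). XTH12 (AT5G57530) had 5.67%, 3.20%, 3.74% and 1.75%, again with AtC3H17 OX between the others, 1.64-fold below WT, and atc3h17-1 3.24-fold below WT.

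XTH20 (AT5G48070) had 14.9% in WT, 6.64% and 6.90% in AtC3H17 OX and 5.52% in atc3h17-1, so that both lines were below WT and close to each other. It was 2.20-fold lower in AtC3H17 OX and 2.69-fold lower in atc3h17-1. In AtC3H17 OX the call ended with the surface trend removed (-0.84) and with normexp values, as such (-0.76) or with their trend removed (-0.65), and in atc3h17-1 with the last of these (-0.90). XTH13 had 4.31%, 2.33%, 2.15% and 2.22%, 1.92-fold and 1.94-fold lower in the 2 lines.

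The other 3 root members differed from these. XTH17 had 41.5% in WT, 25.1% and 25.4% in AtC3H17 OX and 35.1% in atc3h17-1, lower in AtC3H17 OX by 1.64-fold. XTH18 had 444% in WT and in atc3h17-1 and 259% and 263% in AtC3H17 OX, so that only AtC3H17 OX was lower, by 1.70-fold. XTH19 had 17.9% in WT, 18.6% on the second AtC3H17 OX array and 28.2% in atc3h17-1, level with WT in AtC3H17 OX (1.08-fold) and 1.58-fold higher in atc3h17-1.

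Most markers of root tissue were lower on the same arrays. Of 14 such markers, among them CASP genes of the endodermis, the root hair regulator RSL4 and the wall protein genes PRP1 and PRP3, 13 were measured. The median difference from WT was -0.65 in AtC3H17 OX and -2.02 in atc3h17-1, and 4 and 11 of 13 were at least 2-fold lower, against 2.78% and 4.24% of all genes. NRT2.1, a nitrate transporter gene, was 1.59-fold higher in AtC3H17 OX and 1.1-fold lower in atc3h17-1. The summed signal of the 13 markers was 443% in WT, 270% and 266% in AtC3H17 OX and 109% in atc3h17-1. Genes with bright probes weigh most in this sum, and CASP1 alone had 157% in WT. IRT1 was not well above background on any array, and CASP4 and CASP5 were not in atc3h17-1. The root hair expansins EXPA7 and EXPA18 were 1.59-fold and 1.57-fold lower in AtC3H17 OX and 5.12-fold and 4.4-fold lower in atc3h17-1. Markers of leaf tissue had medians of 0.10 and -0.01, with 0 of 9 past 2-fold in either line, against 7.15% and 8.59% of all genes. The part of the root marker difference in the values of the root XTHs, or of EXPA14 and EXPA17, was not tested.

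The 21 measured XTHs outside the root list had medians of 0.06 in AtC3H17 OX and 0.10 in atc3h17-1. Of these, 3 were at least 2-fold above WT in each line, XTH24 and XTH25 in both, against 4.37% of all genes in AtC3H17 OX and 4.34% in atc3h17-1. XTH25 (AT5G57550) had 1.97% in WT, 15% and 14% in AtC3H17 OX and 6.34% in atc3h17-1, above background on all 4 arrays. The order ran from WT over atc3h17-1 to AtC3H17 OX, 3.22-fold and 7.38-fold above WT and 2.29-fold apart from each other. With normexp values it was 1.82 above WT on the log2 scale in AtC3H17 OX, and the calls for atc3h17-1 against WT (0.86) and between the lines (0.96) ended.

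XTH24 (AT4G30270), first described as MERI5 from meristem tissue, was the member with the most probes. Its signal, averaged over 5 probes, was 920% in WT, 2722% and 2749% in AtC3H17 OX and 2044% in atc3h17-1. Both lines were above WT, by 2.97-fold and 2.22-fold, and every probe showed it, from 2.55-fold to 3.40-fold in AtC3H17 OX and from 1.98-fold to 2.60-fold in atc3h17-1. Its calls held under each alternative that was run.

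XTH6 (AT5G65730) had 110% in WT, 258% and 262% in AtC3H17 OX and 134% in atc3h17-1. It was 2.36-fold above WT in AtC3H17 OX and 1.22-fold in atc3h17-1, and between the lines it differed by 1.94-fold. XTH28 (AT1G14720), known from stamen filaments, had 148%, 266%, 263% and 303%, above WT in both lines by 1.79-fold and 2.05-fold. Its WT spot was raised 2.32 times by the scanner software, against 1.26 to 1.27 times elsewhere. With the surface trend removed it was 0.98 above WT in atc3h17-1 and no longer counted, and with normexp values 1.68 and 1.88 above in the 2 lines. XTH23 (also XTR6) had 18.4%, 29.9%, 30.1% and 33.9%, 1.63-fold and 1.85-fold higher. XTH10 and XTH11 were 1.50-fold and 1.15-fold higher in AtC3H17 OX and 1.34-fold and 1.61-fold higher in atc3h17-1.

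XTH33 (AT1G10550), a member anchored at the cell surface, was lower in AtC3H17 OX alone. It had 16.9% in WT, 7.63% and 7.73% in AtC3H17 OX and 15.1% in atc3h17-1. The AtC3H17 OX arrays lay well below both other genotypes, 2.20-fold below WT and 1.96-fold below atc3h17-1, which was 1.12-fold below WT. The call against WT ended with the surface trend removed (-0.96) and with normexp values (-0.97).

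By the usual division of the family, group 1 (XTH1 to XTH11, 8 measured) had medians of -0.04 in AtC3H17 OX and 0.23 in atc3h17-1. In group 1, XTH8 had 225% in WT, 128% on each AtC3H17 OX array and 177% in atc3h17-1, 1.76-fold and 1.27-fold lower. XTH4 and XTH9, expressed in stems and wood-forming tissue, differed from WT by -0.58 and -0.14 in AtC3H17 OX, and XTH7 by 0.06. Group 2 (XTH12 to XTH26, 15 measured) held the lowest and the highest XTH, with medians of -0.55 and -0.24. Group 3 (XTH27 to XTH33, 6 measured), which holds XTH31 and XTH32, known for hydrolysing xyloglucan, had medians of -0.32 and -0.15. XTH31 and XTH32 were 1.42-fold and 1.52-fold lower in AtC3H17 OX, XTH27, known from leaf veins, was 1.20-fold higher, and XTH30 was 1.50-fold lower in atc3h17-1. XTH22, the touch-induced TCH4, had 153%, 196%, 192% and 164%, 1.27-fold and 1.07-fold above WT. The other touch genes listed, CAM2, CML24 and CML12, gave 0 of 3 past 2-fold in either line, against 7.15% and 8.59% of all genes. CML12 was 1.3-fold and 1.6-fold above WT.

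Separate probes of a gene mostly showed the same difference. Of 14 members with several probes, 12 had all probes within 0.5 log2 units in each comparison. The exceptions were EXLA3 and XTH21, a gene that acts in root growth but is not among the 8 root XTHs listed above. The first XTH21 probe had 8.73% in WT, 29.6% and 27.4% in AtC3H17 OX and 19.9% in atc3h17-1, 3.26-fold and 2.27-fold above WT. The second had 4.75%, 3.15% and 2.67%, and was not well above background in atc3h17-1, which makes it 1.64-fold and at least 4.08-fold below WT. Averaging them made AtC3H17 OX 2.81-fold higher than atc3h17-1, a value that neither direction from WT can be read from, and that call ended with the brighter probe alone (0.52). Whether probes of similar XTHs share signal was not tested, since probe sequences were not used here.

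Several members lie beside each other in the genome. In the order of protein-coding genes of the TAIR10.1 annotation, 13 members form 5 runs with at most 1 gene between them. Some neighbours differed in direction, and how often neighbouring genes in general do so was not counted. On chromosome 5, XTH12 and XTH13 were lower in AtC3H17 OX, at -0.71 and -0.94, next to XTH25 at 2.88 and XTH22 at 0.34. On chromosome 4, XTH23 was above WT in both lines (0.71 and 0.88) beside XTH14, which was below it (-1.23 and -2.54). In the run XTH24, XTH18 and XTH19, the values in AtC3H17 OX were 1.57, -0.77 and 0.11. In atc3h17-1 they were 1.15, 0.00 and 0.66, none of them below WT. EXLA1 on chromosome 3 lies beside EXLA3, whose probes disagreed in AtC3H17 OX. In atc3h17-1 both genes were above WT, EXLA1 at 0.60 and EXLA3 at 0.50.

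**Figure D3:**
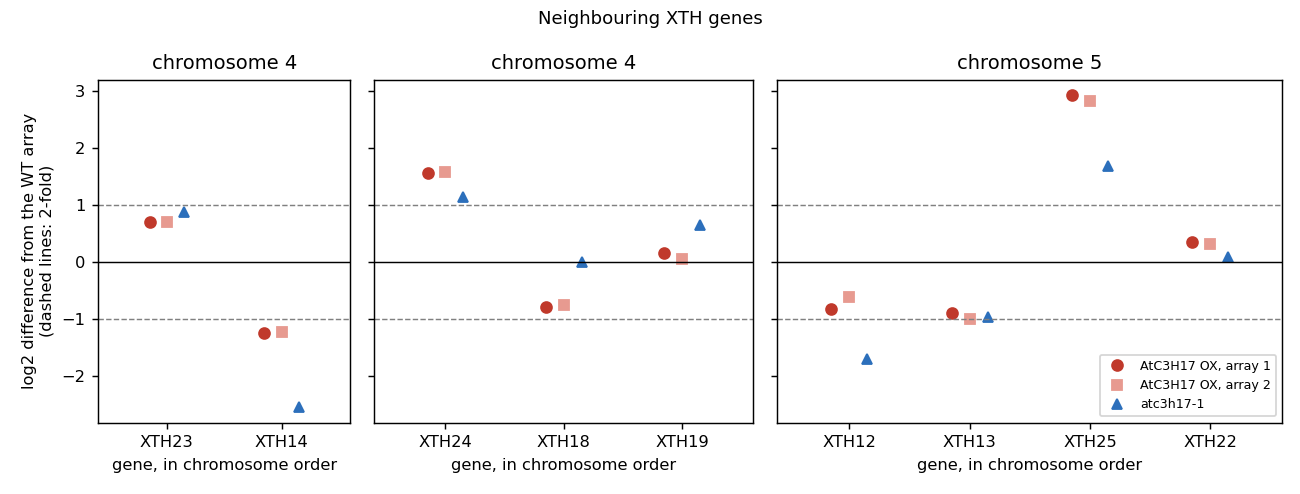
Panels show 3 runs of neighbouring XTHs in chromosome order, with the log2 difference of each array from WT on the vertical axis and dashed lines at 2-fold. In the right panel XTH25 stands above the upper line on all 3 arrays while XTH12 and XTH13 lie below 0, and in the left panel XTH23 lies above and XTH14 below.

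Set side by side, the expansins and the XTHs differed in pattern. In AtC3H17 OX against WT, the middle 50% of the expansins lay between -0.68 and -0.16, all on one side of 0. That of the XTHs lay between -0.72 and 0.34, and that of all genes between -0.31 and 0.26. Below WT in both lines were 17 of 21 expansins and 15 of 29 XTHs, and above it in both lines 3 and 11. The 3 expansins include EXPA2, with its dim signals, and EXLA3, whose probes disagreed in AtC3H17 OX. The share of all genes on the same side in both lines was not counted, and both comparisons use the same WT array. The counts for both lines are therefore a description only. Opposite in the lines were 1 expansin, EXPA20, which was level with WT in atc3h17-1, and 3 XTHs. Between AtC3H17 OX and atc3h17-1, the root XTHs had a median of 0.15, with XTH14 (1.31), XTH12 (0.98) and XTH26 (0.93) higher in AtC3H17 OX and XTH18 (-0.77), XTH19 (-0.55) and XTH17 (-0.48) lower. The root tissue markers had a median of 1.37 there. No test of the families against each other was made.

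**Figure D4:**
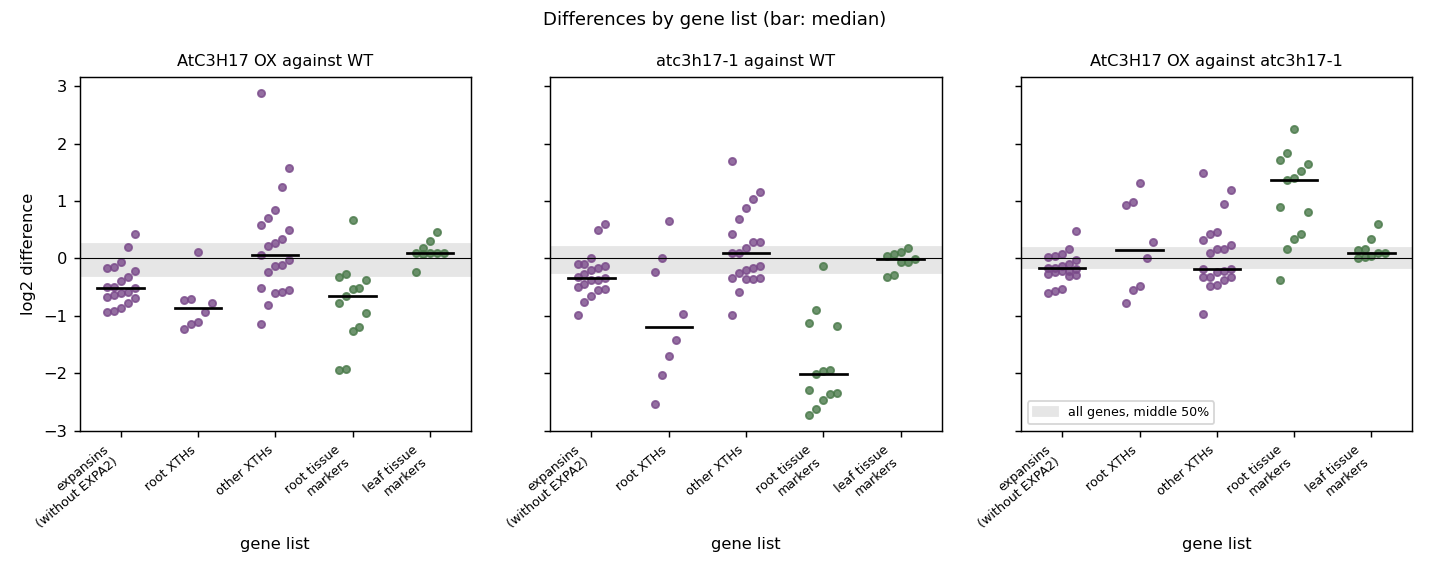
Points are genes, bars are list medians and the grey band is the middle 50% of all genes, with the log2 difference on the vertical axis for each of the 3 comparisons. The medians of the root XTHs and the root tissue markers lie below the band in both comparisons with WT, as does that of the expansins, and the leaf tissue markers stay near 0.

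The listed genes of related steps differed by less than 2-fold, a limit that 7.15% of all genes passed in AtC3H17 OX and 8.59% in atc3h17-1, so that lists of this size would hold few such genes at that share. Of 9 genes that make or trim xyloglucan, 0 passed in either line, with medians of -0.12 and -0.07. The lowest in AtC3H17 OX was CSLC4, which makes the glucan backbone, with 314% in WT, 211% and 216% in AtC3H17 OX and 310% in atc3h17-1, 1.47-fold lower in AtC3H17 OX alone. The xylosyltransferase genes XXT1 and XXT2 differed from WT by at most 1.06-fold, and XXT5 was 1.22-fold and 1.25-fold lower. Of 6 genes of cellulose synthesis in the primary wall, 0 passed, and their medians were 0.38 and 0.35. KOR1, a membrane-bound glucanase needed for cellulose synthesis, had 430%, 622%, 645% and 564%, 1.47-fold and 1.31-fold above WT. Of 14 regulators of growth by wall expansion, 0 passed, with medians of -0.02 and -0.17. Among these, AHA2, a proton pump that acidifies the wall, was 1.28-fold and 1.38-fold lower, and DWF4, an enzyme of brassinosteroid synthesis, 1.38-fold and 1.20-fold lower. PIF3 was 1.35-fold and 1.44-fold higher, and 7 and 6 of the 14 lay above WT, against 44.2% and 47.0% of all genes.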

How the data were processed

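Per the file headers, Agilent Feature Extraction 11.0.1.1 produced the deposited processed intensity of each spot. It subtracted background and corrected each array for trends over its surface, with no normalization between arrays. The deposited median spot and background intensities are raw. The deposited marks of 0 or 1 per spot give signal above background and outliers. The authors' series value table holds the same intensity to 3 significant digits. Each array held 43803 non-control spots, on 1 slide read in 1 scan. The number of arrays limits the precision.

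Processed signals were divided by the 75th percentile of their array and put on the log2 scale. Probes with an outlier spot (70) were left out. Of 43603 probes, 34348 (78.8%) were matched to 1 locus by transcript accession in the TAIR10.1 RefSeq table. The array follows TAIR10, so no coordinates are given. C3H17 was read at AT2G02160, a locus known from outside these files. A gene's value is the mean of its kept probes (14403 genes had 1). Where a probe was dim in 1 genotype, the bound uses the lowest signal well above background on that array, or the probe's own if higher.

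Members and lists were chosen with earlier results of these data known. Named are C3H17, members past 2-fold, the 8 highest and 8 lowest members of each comparison, members whose probes disagree by over 1 log2 unit, and up to 4 genes past 2-fold of each other list; further members and pathway genes were named after their values were seen. Alternatives were normexp background correction (offset 50), quantile normalization, removal of a surface trend (windows of 31 rows and 11 columns), other filters, the brightest probe, the series table, leaving out an AtC3H17 OX array, a limit of 1.5-fold, and limma 3.58.1 in R 4.3.3 (adjusted p under 0.05), which was first tested on simulated data. Normexp with the trend removed was added after seeing the data. Python 3.11.15, numpy 2.4.6, pandas 2.3.3 and matplotlib 3.10.9 were used.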

Additional observations from a re-analysis of the deposited data

How the results depend on the processing

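Medians are on the log2 scale, and counts are of genes past 2-fold. With normexp background correction, members past 2-fold in AtC3H17 OX against WT were 5 in place of 8, the median of the expansins was -0.39, -0.21 and -0.15 (against WT in AtC3H17 OX and atc3h17-1, and between the lines), that of the root XTHs -0.65, -0.81 and 0.11, that of the XTHs -0.26 in AtC3H17 OX and -0.03, with the sign turned, between the lines, and 314 genes and 1 member passed between the lines. With the surface trend of these values also removed, an alternative chosen after seeing the data, 722, 809 and 308 genes passed in the 3 comparisons in place of 1462, 1757 and 912, 5 members in AtC3H17 OX against WT and 1 between the lines. The medians were then -0.38 and -0.20 for the expansins in the comparisons with WT, -0.64, -0.69 and 0.11 for the root XTHs, and -0.01 (atc3h17-1) and -0.04 (between the lines, sign turned) for the XTHs. Removing the trend from the processed signal gave expansins -0.43, -0.22 and -0.21, XTHs 0.00 and root XTHs -1.08 in atc3h17-1, where 3 members were higher and 6 lower. Quantile normalization gave expansins -0.55 in AtC3H17 OX and, between the lines, expansins -0.23, XTHs -0.08 (sign turned) and root XTHs 0.05, with 3 members higher and 1 lower. Without a filter on dim probes the XTHs were at -0.24 in AtC3H17 OX and -0.14 (sign turned) between the lines. Where each of the 4 arrays had to be above background, fewer genes were compared. There 940, 899 and 409 genes passed, and C3H17 in atc3h17-1 read 0.50, since its dim probes left. With the brightest probe the expansins were at -0.56 in AtC3H17 OX and -0.22 between the lines, the XTHs at -0.24 and -0.08 in AtC3H17 OX and atc3h17-1, and C3H17 in AtC3H17 OX at -0.03. At 1.5-fold, 4054, 3589 and 1996 genes and 23, 17 and 9 members passed. Leaving out the first or the second AtC3H17 OX array gave an expansin median of -0.53 or -0.44 against WT, in place of -0.50. The XTH median between the lines was then -0.04 or 0.07, in place of 0.01. The cause of the other moves was not tested. By limma, with the AtC3H17 OX arrays as 2 replicates against 1 array of each other genotype, so that its spread is technical only, 7 members passed against WT and 3 between the lines. The expansin median stayed below 0 in all 3 comparisons under every alternative with a median, and the root XTH median below 0 in both comparisons with WT. No paired analysis was possible because replicate numbers were given only to the AtC3H17 OX arrays. Signals not well above background limit what can be said of EXPA2 and of the 5 unmeasured members.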
